A study of Mus musculus with 16 samples.

Results

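The Krüppel-like factors (KLF) are zinc-finger transcription factors, and the chromatin around 10 of their genes, Klf2, Klf3, Klf4, Klf5, Klf6, Klf7, Klf9, Klf10, Klf12 and Klf13, was examined in mouse pancreatic ductal adenocarcinoma growing in the pancreas, liver and lungs. Accessible regions (peaks) were assigned to a KLF gene when the nearest start site of a protein-coding gene, measured from the middle of the peak and within 100 kb, belonged to that gene. This gave 178 of 136630 nuclear peaks. Klf6 had 33 peaks, Klf3 26, Klf5 23, Klf10 22, Klf4 20, Klf7 17, Klf13 14, Klf2 9, Klf9 8 and Klf12 6. The assignment used positions only and none of the measured values.

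Bulk ATAC-seq, which counts transposase insertions in open chromatin, had been done on sorted tumor cells from 16 mice in 6 groups. The cells came from tumors of KC-shSmad4 mice, in which Ptf1a-Cre, active in the pancreatic lineage, switched on, at Rosa26, the transactivator rtTA3 with a constitutive mKate2 reporter used for sorting. With doxycycline, rtTA3 drives a GFP-linked short hairpin RNA against Smad4 placed at Col1a1. All 6 groups carried these alleles. Tumor-derived lines were transplanted into female nude (Foxn1nu) hosts, which lack mature T cells, by injection into the pancreas, into the spleen for liver metastases with removal of the spleen, or into the tail vein for lung metastases. Hosts on doxycycline bore Smad4 OFF tumors (Panc_OFF and Lung_OFF, n = 3 each, Liv_OFF, n = 2). Hosts taken off doxycycline 4 weeks (pancreas), 5 weeks (liver) or 6 weeks (lungs) after injection bore tumors with Smad4 restored for 14 days (Panc_ON and Lung_ON, n = 3 each, Liv_ON, n = 2). Organ, route of injection and week of withdrawal therefore cannot be told apart. Most such lines had lost Cdkn2a/b, and the labels do not give which line each sample came from. The hosts were separate mice, and whether samples of a group came from different lines is not given in the sources used here.

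KLF proteins share a C-terminal set of zinc fingers that reads GC-rich and CACCC-type DNA, and differ in the N-terminal parts that recruit activators or repressors. Klf4 and Klf5 are best known in epithelia, where Klf5 is prominent in proliferating cells and Klf4 in differentiating ones. Klf2 is a quiescence factor of endothelium and lymphocytes. Klf6 and Klf7 are mostly activators, Klf3 and Klf12 bind the corepressor CtBP, and Klf9, Klf10 and Klf13 can recruit Sin3a, Klf10 having been found as an early gene of the TGFβ pathway, in which Smad4 acts. Accessibility near a gene is not its expression, and in bulk samples a larger share of cells with open chromatin and more open chromatin per cell cannot be told apart.

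For each gene the called peak with the largest difference between liver and lung tumors with Smad4 OFF was taken. The 300 bases around the middle of 6 of these peaks are shown. They are given on the plus strand of mm10 from the RefSeq genome of the same build. Capitals mark letter matches on either strand to a KLF motif (CCNCNCCC), an AP-1 motif (TGANTCA), a RUNX motif (TGTGGT), a SMAD motif (GTCTAGAC) or an HNF4 motif (CAAAGTCCA). The first 4 were more accessible in the liver and the last 2 in the lungs.
Klf5, 92.6 kb downstream, chr14:99391602-99391901: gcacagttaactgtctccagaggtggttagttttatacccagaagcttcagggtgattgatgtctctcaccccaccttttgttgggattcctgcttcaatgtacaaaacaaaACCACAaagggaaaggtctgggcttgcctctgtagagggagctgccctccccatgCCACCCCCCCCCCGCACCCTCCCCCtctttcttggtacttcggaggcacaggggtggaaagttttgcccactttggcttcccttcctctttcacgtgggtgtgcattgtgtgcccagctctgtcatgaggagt
Klf4, 70.5 kb downstream, chr4:55461832-55462131: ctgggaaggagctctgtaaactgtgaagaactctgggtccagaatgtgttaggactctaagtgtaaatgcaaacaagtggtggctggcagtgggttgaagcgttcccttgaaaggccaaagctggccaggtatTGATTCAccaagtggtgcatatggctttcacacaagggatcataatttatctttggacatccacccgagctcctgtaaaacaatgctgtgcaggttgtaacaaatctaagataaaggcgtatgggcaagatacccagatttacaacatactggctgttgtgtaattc
Klf10, 98.4 kb upstream, chr15:38398981-38399280: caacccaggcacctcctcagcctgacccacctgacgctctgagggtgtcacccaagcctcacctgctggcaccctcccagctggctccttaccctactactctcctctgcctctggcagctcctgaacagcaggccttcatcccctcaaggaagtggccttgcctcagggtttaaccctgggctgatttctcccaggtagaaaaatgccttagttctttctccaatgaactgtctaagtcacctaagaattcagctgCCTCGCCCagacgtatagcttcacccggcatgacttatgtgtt
Klf3, 59.1 kb upstream, chr5:64744105-64744404: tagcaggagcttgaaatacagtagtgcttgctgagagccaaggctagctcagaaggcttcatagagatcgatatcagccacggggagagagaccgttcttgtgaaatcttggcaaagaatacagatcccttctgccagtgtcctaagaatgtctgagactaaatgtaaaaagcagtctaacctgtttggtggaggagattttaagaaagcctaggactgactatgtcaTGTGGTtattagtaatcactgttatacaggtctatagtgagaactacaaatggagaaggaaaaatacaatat
Klf7, 70.3 kb upstream, chr1:64191621-64191920: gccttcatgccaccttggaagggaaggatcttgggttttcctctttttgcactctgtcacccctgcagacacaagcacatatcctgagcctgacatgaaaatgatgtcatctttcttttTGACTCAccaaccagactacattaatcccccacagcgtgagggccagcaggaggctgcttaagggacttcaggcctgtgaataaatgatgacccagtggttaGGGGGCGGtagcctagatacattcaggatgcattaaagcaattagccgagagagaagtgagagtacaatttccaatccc
Klf2, 45.6 kb downstream, chr8:72364509-72364808: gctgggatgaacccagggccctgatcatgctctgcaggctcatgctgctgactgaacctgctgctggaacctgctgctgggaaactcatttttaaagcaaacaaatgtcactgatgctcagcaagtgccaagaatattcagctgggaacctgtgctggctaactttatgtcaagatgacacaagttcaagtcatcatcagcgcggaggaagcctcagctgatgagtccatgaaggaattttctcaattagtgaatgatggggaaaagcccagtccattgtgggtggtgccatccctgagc
The Klf5 window held 6 overlapping or adjacent KLF matches in a cytosine-rich stretch and 1 RUNX match. The Klf4 window held 1 AP-1 match, the Klf10 window 1 KLF match, the Klf3 window 1 RUNX match and the Klf7 window 1 KLF and 1 AP-1 match. The Klf2 window held none of the 5 motifs, which says only that these letters are not in this window. Of the windows not shown, that of Klf9, from a peak higher in the liver, held 1 KLF and 1 AP-1 match. Among those from peaks lower in the liver, the Klf13 window held 3 KLF matches. The Klf6 window held 1 AP-1 and 2 RUNX matches, and the Klf12 window none of the 5 motifs.

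Across windows of the same length, the KLF letters were found in 35.4% of the 178 KLF-locus peaks and 28.4% of all nuclear peaks. AP-1 letters were found in 36.5% and 34.1%, RUNX letters in 29.8% and 27.0%, SMAD letters in 0.562% and 0.327%, and HNF4 letters in 1.12% and 1.04%. Of the 51 KLF-locus peaks that were higher in Liv_OFF than in Lung_OFF, 47.1% held KLF letters and 23.5% AP-1 letters, beside 32.9% and 20.0% of all peaks higher in Liv_OFF. The 41 that were lower held them in 26.8% and 48.8%, beside 21.9% and 53.4%. When the library Lung_OFF replicate 1, which stood apart, was left out, the shares were 45.2% and 26.2% of 42 higher peaks and 23.5% and 44.1% of 34 lower ones, beside 33.0% and 20.6%, and 21.9% and 52.0%, over all peaks. AP-1 letters were thus the more frequent of the pair in peaks that were lower in the liver, at the KLF loci and across the genome, and no difference between the KLF loci and the genome was tested.

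Values are normalised read counts, that is reads in a peak divided by a size factor of the sample. The samples held 23.0 to 38.2 M reads in peaks, and the median peak had 36 to 76 reads in a sample. A peak was called different when limma put its log2 fold change at 0.58 or more in either direction, with a Benjamini-Hochberg adjusted p no higher than 0.1 over all nuclear peaks. Of the 178 KLF-locus peaks, 146 had a mean of at least 20 normalised reads, 32 had less, and 5 had a sample with 0 reads. No filter was applied, so all 178 entered every count. The epithelial markers used to check the sort (7 of 7 genes with a peak) had a summed normalised count of 10852 to 29622, with the highest sums in the liver (21101 to 29622). Among them the Cdh1 peak was weak, at 8.43 to 66.6. Hepatocyte markers (4 of 7 genes with a peak, each the peak nearest its start) summed to 815 to 982 in the liver tumors and 235 to 551 elsewhere. Of the 4, Apoa1, Ttr and Hnf4a were higher in Liv_OFF than in Lung_OFF (log2 fold changes 0.81, 1.42 and 2.31). The Alb peak, 6.56 kb from the start, was at 13.6 to 20.9 in the liver and 5.37 to 27.3 elsewhere (log2 fold change -0.14). Acinar markers (6 of 7) summed to 599 to 842 in the liver and 294 to 438 elsewhere. Fibroblast markers (7 of 7) summed to 755 to 1702 in pancreatic tumors and 144 to 614 elsewhere. Leukocyte markers (6 of 7) ranged from 522 to 1084, and lung epithelial ones (5 of 7) from 306 to 556. Their part in the comparisons was not tested.

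The library Lung_OFF replicate 1 stood apart. Its endothelial marker sum (7 of 7 genes) was 1064, beside 341 to 624 in the other samples. Most of that sum was the count at the start site of Cdh5, an endothelial adhesion gene, 697, beside 14.2 to 129. At each of the other endothelial markers its count was within or below the range of the other samples. Pecam1 had 124, beside 5.57 to 156, and Tie1 22.1, beside 37.9 to 77.2. The numbers of calls in comparisons with Lung_OFF, and the fold changes of the peaks given there with their counts, are therefore given also without it.

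The KLF loci were mostly regions of distal chromatin. Of the 178 peaks, 129 (72.5%) were intergenic, 37 (20.8%) intronic, 7 (3.93%) in promoters and 5 (2.81%) in exons, beside 45.6%, 42.2%, 9.77% and 2.38% of all peaks. The median distance to the gene's start was 37.6 kb, beside 17.2 kb over all peaks. The median width was 656 bp (588 bp over all peaks), and the median GC content was 45.8% in both. The median of the mean normalised count was 74.7 (57.5 over all peaks). Not every peak lay outside other genes. Of the 9 Klf2 peaks, 6 downstream ones were in introns of Eps15l1, and 5 far-upstream Klf5 peaks were in introns of Pibf1.

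The 100 kb limit passes through some of these clusters. Between 96.3 and 99.6 kb from a start, 6 peaks fell inside, and their log2 fold changes (Liv_OFF minus Lung_OFF) ran from -1.51 at a Klf7 peak to 2.78 at a Klf10 peak. Between 100 and 119 kb, 22 peaks fell outside. They ran from -2.46 at a Klf6 peak to 2.61 at a Klf10 peak, and 3 peaks beyond the limit at Klf3 had values of 1.10, 2.11 and 2.22.

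With Smad4 OFF, more of the called peaks were higher than lower in liver against lung metastases at Klf5, Klf3, Klf10 and Klf4, and more were lower than higher at Klf2, Klf7 and Klf6. Of the 178 peaks, 92 (51.7%) were called, 51 higher and 41 lower in the liver. Over all peaks 49.7% were called (22.9% higher and 26.8% lower), so the share called at the KLF loci was near the background and only its split leaned to the liver. The median log2 fold change of the KLF-locus peaks was 0.24, beside 0.00 over all peaks. Without Lung_OFF replicate 1, 76 were called (42.7%, background 41.2%), 42 higher and 34 lower (background 19.2% and 22%), and the median was 0.21, beside 0.044 over all peaks. Among intergenic KLF-locus peaks 76 of 129 were called, among intronic ones 14 of 37, among promoter peaks 2 of 7 and among exonic ones 0 of 5, where 52.8%, 51.7%, 26.6% and 49.6% of all such peaks were called. Without that library 66, 10, 0 and 0 were called, where the shares over all such peaks were 43.8%, 43.1%, 20.5% and 41.9%.

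The genes differed in their split. At Klf5, 12 of 23 peaks were higher and 1 lower, at Klf3 10 and 3 of 26, at Klf10 8 and 4 of 22, at Klf4 8 and 4 of 20, and at Klf9 3 and 1 of 8. At Klf2, 0 of 9 were higher and 6 lower, at Klf7 3 and 7 of 17, at Klf6 5 and 11 of 33, at Klf13 2 and 3 of 14, and at Klf12 0 and 1 of 6. Without Lung_OFF replicate 1 the splits were 9 and 1 at Klf5, 10 and 2 at Klf3, 6 and 4 at Klf10, 8 and 4 at Klf4, 2 and 0 at Klf9, 1 and 5 at Klf2, 2 and 6 at Klf7, 3 and 9 at Klf6, 1 and 3 at Klf13, and 0 and 0 at Klf12. Peaks of 1 locus lie close together and are not independent observations.

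**Figure D1:**
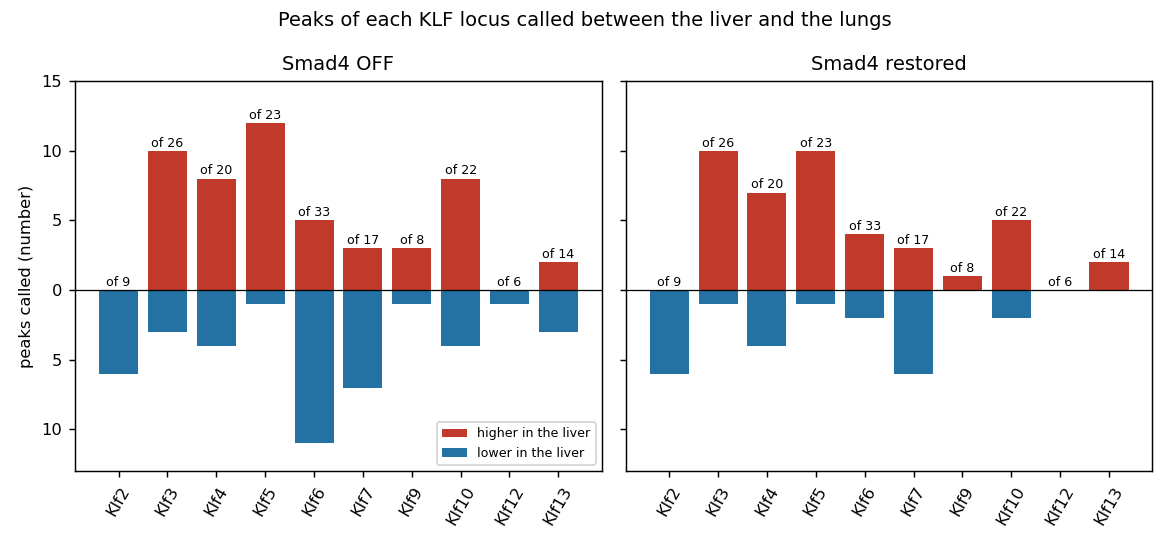
Number of peaks called higher or lower in liver than in lung metastases at each of the 10 KLF genes, with Smad4 OFF and with Smad4 restored. With Smad4 OFF, Klf5 had 12 higher and 1 lower, and Klf2 had 0 higher and 6 lower.

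At Klf5, 12 of the 13 called peaks were higher in the liver. The gene lies at chr14:99298691-99315036 on the plus strand. A peak 17.6 kb upstream (chr14:99280388-99281718, intergenic) had normalised counts of 336 and 369 in Liv_OFF and 38.7, 79.3 and 36.2 in Lung_OFF. The liver samples were several times above every lung sample, with a log2 fold change of 2.85 ± 0.35 (SE, adjusted p = 3.80e-05). In Panc_OFF the same peak had 35.0, 36.6 and 29.6, all below 79.3, the highest count outside the liver.

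On the other side of the gene, 8 peaks lay more than 50 kb downstream, of which 5 were higher in the liver and 0 lower. The largest difference was at the peak 92.6 kb downstream (chr14:99391470-99392033), whose sequence is shown above. Its counts were 48.1 and 114 in Liv_OFF, 4.60, 7.61 and 6.03 in Lung_OFF and 3.42, 2.68 and 3.70 in Panc_OFF. The liver and lung groups did not overlap, and the log2 fold change was 3.43 ± 0.56 (SE, adjusted p = 0.000246). A further peak, 80.0 kb upstream and inside an intron of Pibf1 (chr14:99218191-99219180), had 425 and 394 in Liv_OFF and 47.9, 136 and 115 in Lung_OFF, a log2 fold change of 2.16 ± 0.35 (SE, adjusted p = 0.000237). The single lower Klf5 peak lay 10 to 50 kb upstream, between peaks that were higher. With Lung_OFF replicate 1 left out, the log2 fold changes were 2.69 at 17.6 kb upstream, 3.27 at 92.6 kb downstream and 1.70 at 80.0 kb upstream, all called.

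At Klf4 (chr4:55527143-55532466, minus strand), peaks moved in opposite directions within 1 locus. Upstream, beyond 50 kb, 4 of 7 peaks were higher in Liv_OFF and 1 lower, and downstream beyond 50 kb, 3 of 7 were higher and 1 lower. The peak 70.5 kb downstream (chr4:55461698-55462266) had counts of 59.2 and 117 in Liv_OFF and 5.52, 12.0 and 5.17 in Lung_OFF, a log2 fold change of 3.39 ± 0.60 (SE, adjusted p = 0.000425). In Panc_OFF it had 23.9, 16.1 and 50.0, between the liver and the lungs.

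Another upstream peak had the opposite order. This peak, 9.66 kb upstream (chr4:55541003-55543245, intergenic), had 216 and 212 in Liv_OFF, 787, 589 and 877 in Lung_OFF and 560.2, 553 and 495 in Panc_OFF. Every liver sample was below every lung and pancreas sample, with a log2 fold change between liver and lungs of -1.79 ± 0.21 (SE, adjusted p = 3.30e-05). The rule that named this peak asks for no overlap between liver and lungs. The peak 43.3 kb downstream was also lower, with 123 and 134 in Liv_OFF, 561, 298 and 490.2 in Lung_OFF and a log2 fold change of -1.75 ± 0.23 (SE, adjusted p = 6.30e-05). Of the 4 Klf4 peaks called lower in the liver, the other two lay 60.7 kb upstream (log2 fold change -0.84) and 81.7 kb downstream (-1.69). The values were 3.24 at 70.5 kb downstream, -1.74 at 9.66 kb upstream and -1.57 at 43.3 kb downstream, all called, without Lung_OFF replicate 1.

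**Figure D2:**
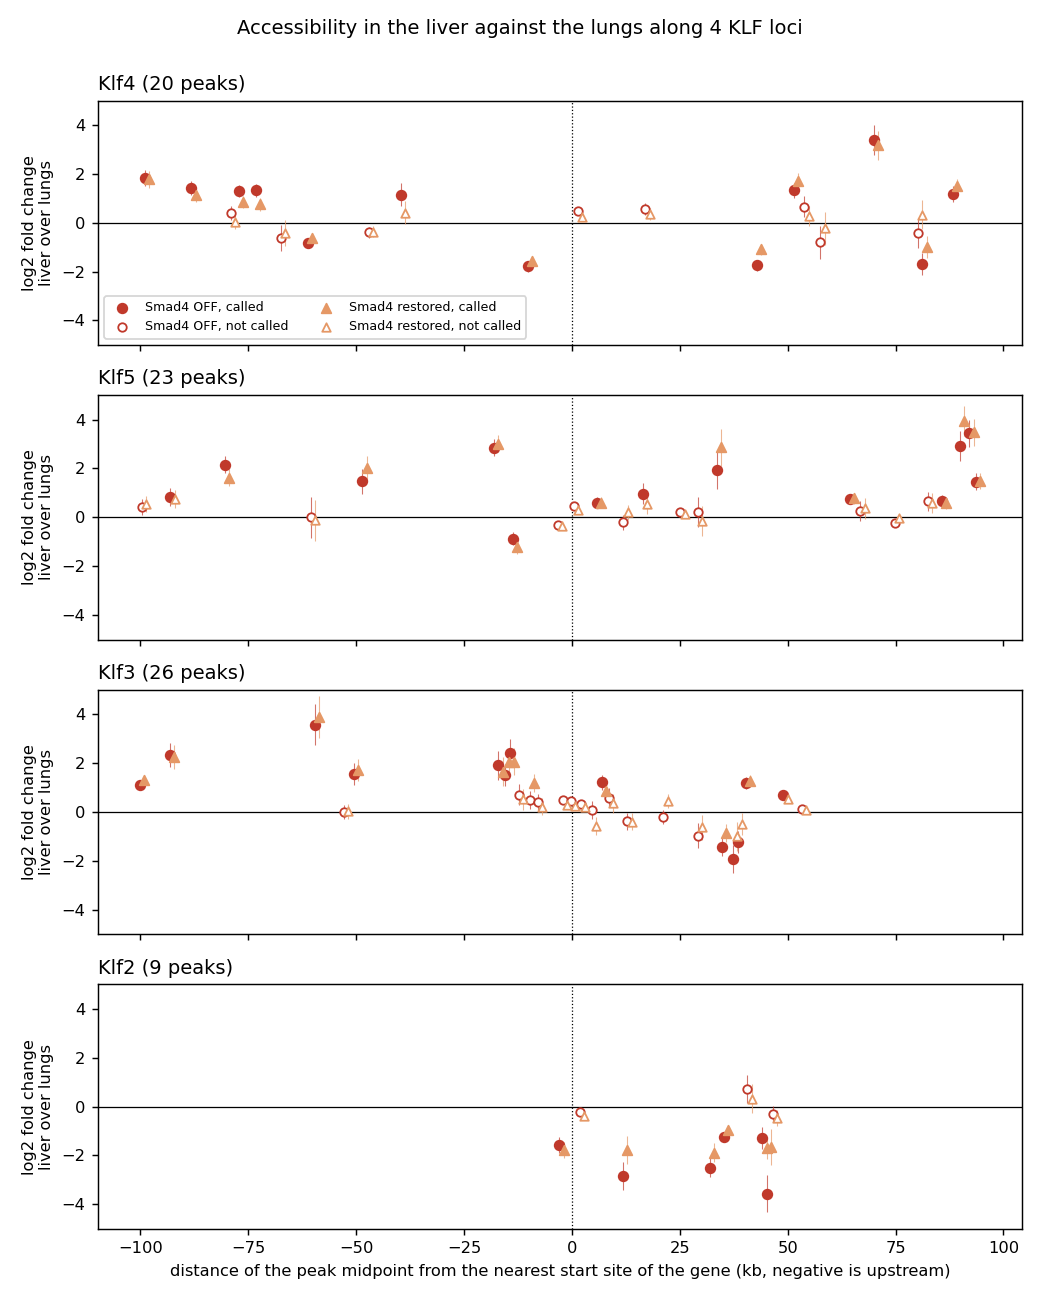
Log2 fold change of each peak between liver and lung metastases (vertical axis, bars show the SE) against its distance from the gene's start in kb (horizontal axis) at Klf4, Klf5, Klf3 and Klf2. Circles are Smad4 OFF, triangles Smad4 restored, and filled symbols are called. The Klf5 peaks lie mostly above 0 and the Klf2 peaks mostly below, while Klf4 has both.

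The repressor genes Klf3 and Klf10, and Klf9, held more called peaks that were higher than lower in the liver. At Klf3 (chr5:64803388-64832901, plus strand) 7 of the 9 peaks more than 10 kb upstream were higher in Liv_OFF and 0 lower, and 10 to 50 kb downstream 2 of 8 were higher and 3 lower. No difference between the sides was tested. The peak 59.1 kb upstream (chr5:64744087-64744422) had 24.7 and 50.2 in Liv_OFF and 2.76, 1.09 and 2.58 in Lung_OFF, a log2 fold change of 3.58 ± 0.85 (SE, adjusted p = 0.00311) on few reads, and 3.73 without Lung_OFF replicate 1.

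At Klf10 (chr15:38291463-38300706, minus strand) the peak 98.4 kb upstream (chr15:38398671-38399591), close to the 100 kb limit, had 594 and 609 in Liv_OFF and 59.8, 131 and 82.7 in Lung_OFF. The log2 fold change was 2.78 ± 0.40 (SE, adjusted p = 0.000104). At Klf9 (chr19:23141226-23168134, plus strand), a gene induced by glucocorticoid and thyroid hormone, the peak 19.2 kb upstream had 28.4 and 26.5 in Liv_OFF and 4.60, 1.09 and 3.45 in Lung_OFF, a log2 fold change of 2.93 ± 0.50 (SE, adjusted p = 0.000352). The Klf10 value was 2.52 and the Klf9 value 3.22 without Lung_OFF replicate 1, both called.

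At Klf2 (chr8:72319033-72321656, plus strand) all 6 called peaks were lower in the liver, and 4 of them lay in introns of the neighbouring Eps15l1. Between 10 and 50 kb downstream, 5 of 7 peaks were lower in Liv_OFF and 0 higher. The peak 32.4 kb downstream (chr8:72350463-72352374) had 49.4 and 65.5 in Liv_OFF and 530.2, 206 and 313 in Lung_OFF, a log2 fold change of -2.49 ± 0.38 (SE, adjusted p = 0.000152). The peak 45.6 kb downstream (chr8:72364464-72364854) had 6.17 and 5.57 in Liv_OFF, 175, 55.4 and 52.6 in Lung_OFF and 21.4, 7.15 and 5.56 in Panc_OFF. Its log2 fold change was -3.56 ± 0.74 (SE, adjusted p = 0.00133). On the other 2 Lung_OFF libraries the values were -2.14 at 32.4 kb and -3.00 (adjusted p = 0.00665) at 45.6 kb downstream, and 1 Klf2 peak was called higher in the liver. Since Klf2 is a known endothelial gene, the value in that library, the first of each Lung_OFF list, stands beside its high endothelial marker sum. Most of that sum came from Cdh5 alone. The part of endothelial cells in the Klf2 values was not tested.

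Klf7 and Klf6, related activators, also had lower distal peaks. At Klf7 (chr1:64029447-64122282, minus strand) all 7 peaks more than 10 kb upstream had negative log2 fold changes, and 6 of them were called lower in Liv_OFF. The peak 70.3 kb upstream (chr1:64191510-64192031) had 6.17 and 6.97 in Liv_OFF, 81.0, 27.2 and 72.4 in Lung_OFF and 60.6, 100.05 and 53.7 in Panc_OFF, with a log2 fold change between liver and lungs of -2.87 ± 0.44 (SE, adjusted p = 0.000165). At Klf6 (chr13:5861482-5870394, plus strand) 5 of 9 peaks more than 50 kb upstream were lower and 0 higher. The largest difference was at 70.3 kb downstream, where Liv_OFF had 3.70 and 1.39 and Lung_OFF 14.7, 9.78 and 21.5, a log2 fold change of -2.22 ± 0.58 (SE, adjusted p = 0.00585). The median over the 33 Klf6 peaks was 0.01. The Klf7 value was -2.59 and the Klf6 value -2.22 without Lung_OFF replicate 1, both called.

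The remaining loci, Klf13 and Klf12, held few called peaks. At Klf13 (chr7:63886351-63938915, minus strand) the peak 12.5 kb upstream had 7.41 and 4.18 in Liv_OFF and 39.6, 10.9 and 81.9 in Lung_OFF, a log2 fold change of -2.37 ± 0.68 (SE, adjusted p = 0.00926), and -2.25 without Lung_OFF replicate 1. At Klf12 (chr14:99870632-100284679, minus strand) the peak 41.8 kb downstream had 6.17 and 0 in Liv_OFF and 57.1, 7.61 and 3.45 in Lung_OFF, a log2 fold change of -2.28 ± 0.97 (SE, adjusted p = 0.0610). The Klf12 groups overlapped, and without Lung_OFF replicate 1 the value was -1.21 (adjusted p = 0.281), so no Klf12 peak was then called.

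**Figure D3:**
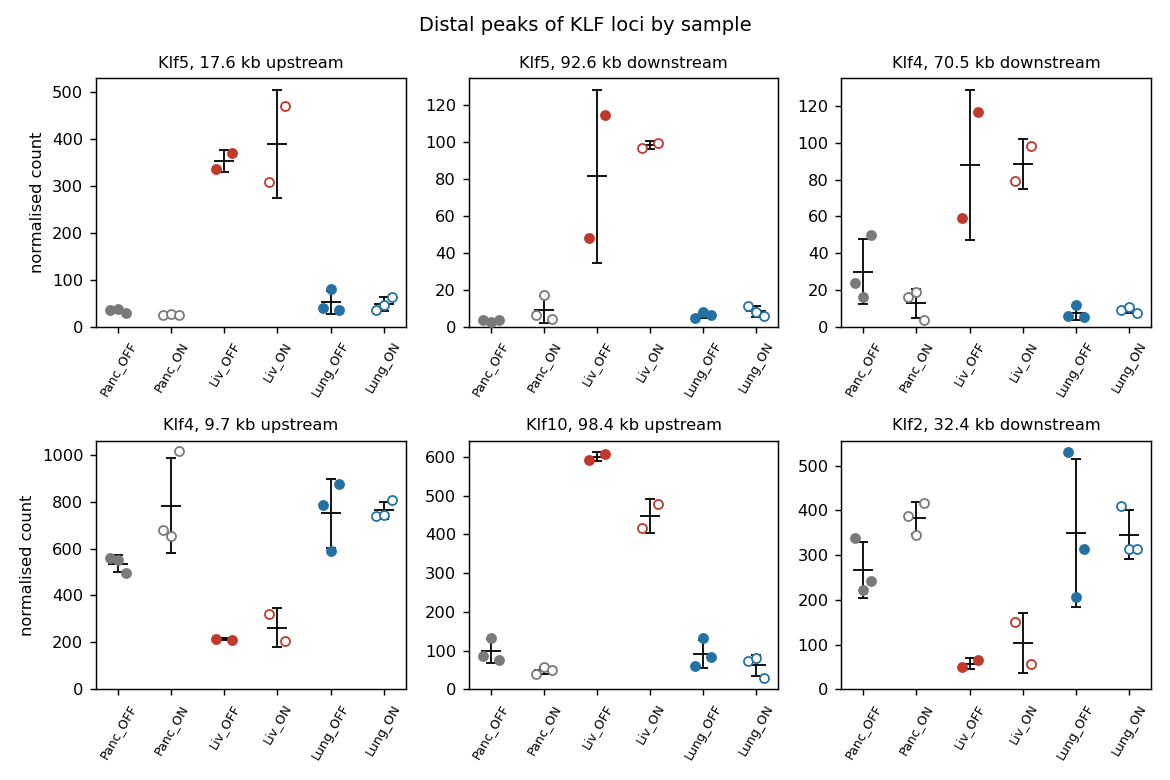
Normalised read count of 6 KLF-locus peaks in each of the 16 samples, by group. Points are samples and bars the mean ± SD. The Klf5 peak 17.6 kb upstream and the Klf10 peak 98.4 kb upstream are highest in both liver groups, and the Klf4 peak 9.66 kb upstream is lowest there.

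The start-site peaks, the peak of each gene nearest to an annotated start, differed less. Those of Klf2, Klf4 and Klf6 counted as exonic and the others as promoter peaks. In Liv_OFF against Lung_OFF 2 of 10 were called, at Klf9 and Klf10. Of all promoter peaks 26.6% were called, and of all exonic ones 49.6%. The median log2 fold change of the 10 was 0.47, beside 0.40 over all promoter peaks and 0.13 over all exonic ones. With Lung_OFF replicate 1 left out, 0 of 10 were called (20.5% of all promoter and 41.9% of all exonic peaks). The medians were then 0.44, 0.36 and 0.15. The Klf10 peak had 6892 and 8138 in Liv_OFF and 4110.0, 5442 and 4687 in Lung_OFF, a log2 fold change of 0.67 ± 0.11 (SE, adjusted p = 0.000310). The Klf9 peak had 5512 and 5201 in Liv_OFF and 2683, 3887 and 3338 in Lung_OFF, a log2 fold change of 0.71 ± 0.13 (SE, adjusted p = 0.000545). Both values were 0.57, just short of the threshold, without that library. Quantile normalisation gave 0.28 at Klf9 and 0.20 at Klf10, and a GC correction 0.49 and 0.33, neither past the threshold. The other start sites had log2 fold changes of 0.55 at Klf13, 0.49 at Klf4, 0.47 at Klf5, 0.46 at Klf7, 0.45 at Klf3, 0.31 at Klf6, -0.03 at Klf12 and -0.21 at Klf2. Only that of Klf12 had overlapping groups. The share of all promoter or exonic peaks without overlap is not given here, and the groups were small. No conclusion is therefore drawn from the lack of overlap. With the same library left out, the log2 fold changes of these start sites ran from -0.20 at Klf2 to 0.63 at Klf12. Quantile normalisation gave 0.12 at Klf13, 0.063 at Klf4, 0.049 at Klf7, 0.045 at Klf5, 0.039 at Klf3, -0.037 at Klf6, -0.076 at Klf12 and -0.61 at Klf2, the last of which was then called lower. The GC correction gave 0.61 at Klf6, which was then called higher, and left the other start sites uncalled. Per kb of peak, the median normalised count over the 16 samples was highest at Klf10 (1144), then Klf3 (1010.4), and lowest at Klf12 (107). These peaks were 2044 to 17997 bp wide.

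With Smad4 restored, the same comparison was made on other samples, since Liv_ON and Lung_ON share none with Liv_OFF and Lung_OFF. It called 64 of 178 KLF-locus peaks (36.0%, background 35.8%), 42 higher and 22 lower in the liver (background 17.6% and 18.2%), and 35 without Liv_ON replicate 2. Of these, 59 were called in the same direction with Smad4 OFF, which is 64.1% of the 92 and 92.2% of the 64, beside 61.8% and 85.8% over all peaks. Leaving out Lung_OFF replicate 1, 54 were called in both, 71.1% of 76 and 84.4% of the 64, beside 69.6% and 80.1% over all peaks. No KLF-locus peak was called in opposite directions. Of the 92 peaks called with Smad4 OFF, 90 had the same sign with Smad4 restored.

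The split by gene was Klf5 10 higher and 1 lower, Klf3 10 and 1, Klf4 7 and 4, Klf10 5 and 2, Klf6 4 and 2, Klf7 3 and 6, Klf13 2 and 0, Klf9 1 and 0, Klf2 0 and 6, and Klf12 0 and 0. The peak 17.6 kb upstream of Klf5 had 307 and 471 in Liv_ON and 34.8, 45.0 and 63.5 in Lung_ON, a log2 fold change of 3.01 ± 0.35 (SE, adjusted p = 5.70e-05). The peak 98.4 kb upstream of Klf10 had 416 and 478 in Liv_ON and 73.0, 81.5 and 29.9 in Lung_ON, a log2 fold change of 2.96 ± 0.40 (SE, adjusted p = 0.000135). The Klf4 peak 9.66 kb upstream was again lower in the liver, with 321 and 205 in Liv_ON and 739, 744 and 806 in Lung_ON, a log2 fold change of -1.57 ± 0.21 (SE, adjusted p = 0.000145). These 3 peaks were chosen among called peaks whose liver and lung samples did not overlap, so the lack of overlap is not a separate result. Klf3 had a further distal peak, 99.6 kb upstream, with 291 and 376 in Liv_ON and 125, 125 and 151 in Lung_ON, a log2 fold change of 1.31 ± 0.21 (SE, adjusted p = 0.000384). Klf2 had 2 peaks named here, 32.4 kb downstream (log2 fold change -1.89) and 2.44 kb upstream (-1.78), both lower in Liv_ON.

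Between liver metastases and primary tumors, the share of KLF-locus peaks called was near the background, and its split leaned to the liver. With Smad4 OFF 108 of 178 (60.7%, background 58.5%) were called between Liv_OFF and Panc_OFF, 68 higher and 40 lower in the liver (background 26.2% and 32.3%), and the median log2 fold change was 0.32, beside -0.05 over all peaks. With Smad4 restored, 114 (64.0%, background 59.4%) were called between Liv_ON and Panc_ON, 75 higher and 39 lower (background 27.1% and 32.2%). These comparisons share the liver samples with those against the lungs. Between OFF and ON, which share none, 90 calls were in common, 83.3% of the first and 78.9% of the second, beside 85.1% and 83.9% over all peaks.

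Klf5 had 15 of 23 peaks higher and 0 lower in Liv_OFF, and 14 and 2 in Liv_ON. Klf3 had 14 and 3, then 15 and 2. Klf10 had 10 and 5, then 11 and 3, and Klf4 10 and 6 both times. Klf6 was even, with 7 and 7, then 10 and 10, Klf7 had 3 and 8, then 6 and 7, Klf13 4 and 4, then 5 and 3, and Klf9 4 and 2, then 4 and 1. Klf2 had 1 and 4, then 0 and 4, and Klf12 0 and 1 both times. At the Klf5 peak 17.6 kb upstream the log2 fold change was 3.35 ± 0.35 (SE, adjusted p = 7.65e-06) with Smad4 OFF and 3.88 ± 0.35 (SE, adjusted p = 3.25e-06) with Smad4 restored, where Panc_ON had 24.9, 26.0 and 23.8. The Klf7 gene held peaks of both directions. An intronic peak 15.99 kb downstream had 660.3 and 563 in Liv_OFF and 142, 174 and 125 in Panc_OFF (log2 fold change 2.06), while the peak 70.3 kb upstream had a log2 fold change of -3.21 ± 0.44 (SE, adjusted p = 4.19e-05). At Klf10 the peak 39.4 kb downstream was lower in the liver, with 34.6 and 29.3 in Liv_OFF and 144, 138 and 189 in Panc_OFF, a log2 fold change of -2.26 ± 0.33 (SE, adjusted p = 6.45e-05).

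Lung metastases were closer to primary tumors, at the KLF loci as over all peaks. With Smad4 OFF 25 of 178 peaks (14.0%, background 17.3%) were called between Lung_OFF and Panc_OFF, 18 higher and 7 lower in the lungs (background 6.59% and 10.7%). The count was 25 without Lung_OFF replicate 1 (16 higher and 9 lower, background 18.5%, 7% higher and 11.5% lower), 13 without Panc_OFF replicate 2 and 7 without Panc_OFF replicate 3. Klf3 had 6 higher and 1 lower, Klf6 4 and 0, Klf5 3 and 0, Klf2 2 and 0, Klf7 2 and 1, Klf4 1 and 4, and Klf9 0 and 1. None was called at Klf10, Klf12 or Klf13. With Smad4 restored, 46 (25.8%, background 27.8%) were called between Lung_ON and Panc_ON, 36 higher and 10 lower (background 12.8% and 14.9%), with Klf3 10 and 1, Klf5 6 and 1, Klf10 6 and 2, Klf4 5 and 3, Klf6 3 and 1, Klf7 3 and 0, Klf9 2 and 0, and Klf13 1 and 2. None was called at Klf2 or Klf12. Of the OFF calls, 10 were shared, 40% of the first set and 21.7% of the second, beside 63.6% and 39.7% over all peaks, and this difference was not tested.

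The Klf4 peak 60.7 kb upstream had 585, 590.1 and 589 in Lung_OFF and 344, 344 and 323 in Panc_OFF, a log2 fold change of 0.80 ± 0.17 (SE, adjusted p = 0.00657). The Klf4 peak 67.02 kb upstream was lower in the lungs, with 8.28, 3.26 and 6.03 in Lung_OFF and 17.9, 18.8 and 30.6 in Panc_OFF, a log2 fold change of -1.80 ± 0.47 (SE, adjusted p = 0.0212). The Klf6 peak 29.2 kb upstream was higher in Lung_OFF (log2 fold change 1.73), as was the Klf2 peak 45.6 kb downstream (2.93), whereas the Klf4 peak 70.5 kb downstream (-1.79) and the Klf9 peak 19.2 kb upstream (-1.45) were lower. In the absence of Lung_OFF replicate 1 the values were 0.81 at 60.7 kb and -2.06 at 67.02 kb upstream of Klf4, 1.85 at Klf6, 2.37 at Klf2, -1.64 at 70.5 kb downstream of Klf4 and -1.74 at Klf9, all called. With Smad4 restored, the Klf6 peak 47.9 kb upstream had 16.8, 25.9 and 16.8 in Lung_ON, 1.78, 2.48 and 1.53 in Panc_ON and 32.6 and 72.1 in Liv_ON. Panc_ON was below every metastasis, where the rule that named this peak asks for no overlap. The log2 fold change was 2.82 ± 0.41 (SE, adjusted p = 0.000513) for the lungs and 4.09 ± 0.46 (SE, adjusted p = 8.87e-06) for the liver.

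The Klf4 peak 72.7 kb upstream had the same order, with 72.0, 73.0 and 91.2 in Panc_ON, 191, 242 and 299.5 in Lung_ON and 359.9 and 453 in Liv_ON. The Klf9 peak 5.87 kb upstream was higher in Lung_ON (log2 fold change 0.88). The Klf4 peak 58.1 kb downstream (-2.70), the Klf10 peak 30.2 kb downstream (-1.82) and the Klf13 peak 80.2 kb upstream (-1.78) were lower in Lung_ON than in Panc_ON.

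Summed over all peaks of a locus, the differences were smaller. Between Liv_OFF and Lung_OFF only Klf2 was called (1 of 10 loci, 0 higher and 1 lower, background 32.2% of 17815 genes, 20.4% higher and 11.8% lower). Its summed normalised count was 2793 and 2954 in Liv_OFF and 5276, 3894 and 4491 in Lung_OFF, a log2 fold change of -0.65 ± 0.13 (SE, adjusted p = 0.000837). Without Lung_OFF replicate 1 the value was -0.54 and no KLF locus was called. The median over all genes was 0.30, so Klf2 was lower by 0.95 relative to it.

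Between Liv_OFF and Panc_OFF 3 loci were called (background 36.8%, 23.8% higher and 13% lower), all higher in the liver. Klf5 had 8109 and 8409.6 in Liv_OFF and 5272, 4668 and 4489.6 in Panc_OFF, a log2 fold change of 0.78 ± 0.11 (SE, adjusted p = 6.15e-05). Klf9 had 11026 and 10675 in Liv_OFF and 6566, 7033 and 6244 in Panc_OFF, a log2 fold change of 0.72 ± 0.12 (SE, adjusted p = 0.000242). Klf3 had 13987 and 14676 in Liv_OFF and 10084, 8956 and 9015 in Panc_OFF, a log2 fold change of 0.62 ± 0.10 (SE, adjusted p = 0.000186). The median over all genes was again 0.30, and the calls depended on the scaling. With TMM factors Klf5 (0.69) and Klf9 (0.62) were called higher, Klf3 (0.53) was not, and Klf2 (-0.64) was called lower. With GC correction Klf5 (0.71) was called higher, Klf9 (0.48) and Klf3 (0.45) were not, and Klf2 (-0.80) was called lower. After quantile normalisation Klf2 alone was called (-0.88). No locus was called between Lung_OFF and Panc_OFF (background 5.76%, 2.53% higher and 3.23% lower).

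The order of the 6 groups was Liv_OFF, Liv_ON, Lung_ON, Lung_OFF, Panc_ON and Panc_OFF for the mean Klf5 sum. The liver groups overlapped each other but not the next group, and each remaining neighbour overlapped the next. For Klf2 the order was Lung_ON, Lung_OFF, Panc_ON, Panc_OFF, Liv_OFF and Liv_ON, and only the step from Panc_OFF to Liv_OFF had no overlap. For Klf4 it was Liv_OFF, Liv_ON, Lung_OFF, Lung_ON, Panc_ON and Panc_OFF, and only the first step had no overlap. The mean was highest in Liv_OFF for 7 of the 10 loci, in Liv_ON for Klf6, in Lung_ON for Klf2 and in Panc_ON for Klf12, whose neighbouring groups all overlapped. The median over all genes was also 0.30 higher in Liv_OFF, against Lung_OFF and against Panc_OFF. The share of all genes with their highest mean in Liv_OFF was not counted.

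The locus sums of 7779 genes with at least 5 peaks, Klf4 and Klf5 included, were compared over the 16 samples. Those most like that of Klf5 were of Usp43 (Pearson r = 0.985), Chmp2b (0.981) and Lmo7 (0.980). For Klf4 they were Lnx2 (0.962), Sec62 (0.957) and Ghitm (0.955). The samples share organ groups and size factors, and the values are a description.

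**Figure D4:**
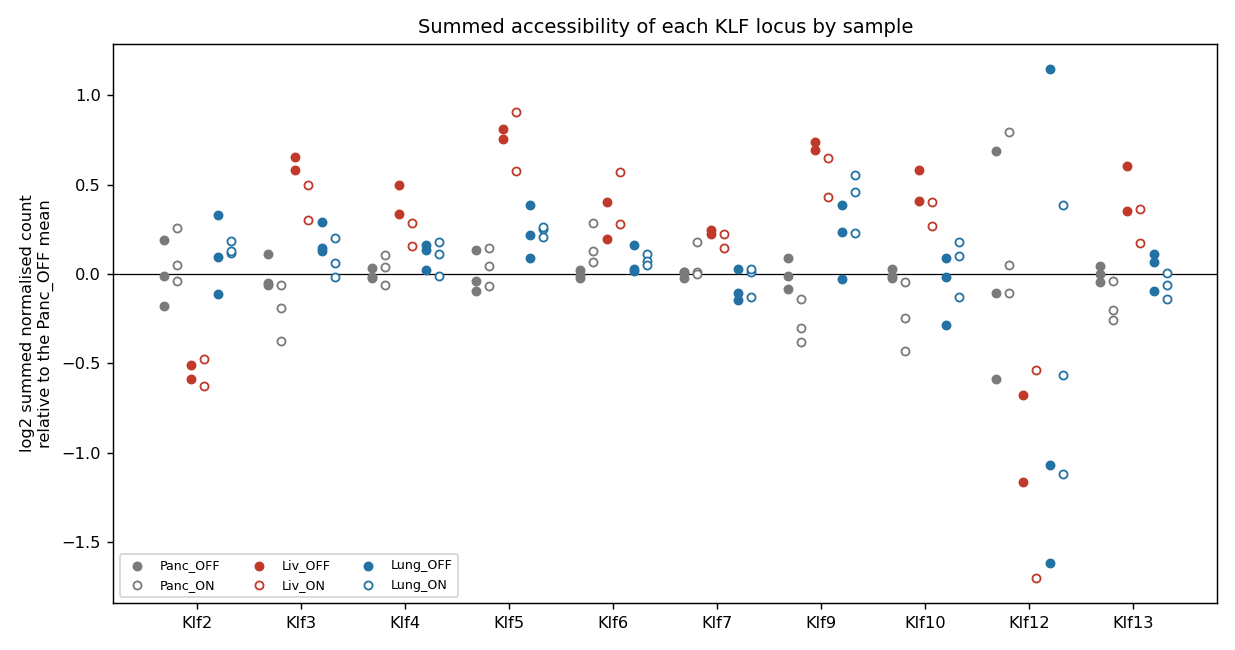
Summed normalised count of each KLF locus in each sample, as log2 relative to the mean of Panc_OFF. Klf5 is highest in both liver groups and Klf2 lowest there.

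On Smad4 restoration few peaks were called, at the KLF loci as over all peaks. In the pancreas 6 of 178 (3.37%, background 3.42%) were called, 0 higher and 6 lower with Smad4 restored (background 0.364% and 3.06%). The largest was at Klf6, 47.9 kb upstream, with 12.8, 8.04 and 6.48 in Panc_OFF and 1.78, 2.48 and 1.53 in Panc_ON, a log2 fold change of -1.75 ± 0.41 (SE, adjusted p = 0.0418). The Klf4 peak 72.7 kb upstream (chr4:55604638-55605696) had 189.6, 165 and 171 in Panc_OFF and 72.0, 73.0 and 91.2 in Panc_ON, a log2 fold change of -1.15 ± 0.24 (SE, adjusted p = 0.0270). An intronic Klf7 peak 9.42 kb downstream had 64.9, 64.3 and 61.1 in Panc_OFF and 21.3, 28.5 and 16.1 in Panc_ON, a log2 fold change of -1.52 ± 0.31 (SE, adjusted p = 0.0252). These 3 peaks were chosen among called peaks whose groups did not overlap, so every restored sample was below every Smad4 OFF sample by that choice. The other called peaks were 47.9 kb upstream of Klf13 (log2 fold change -1.40), 73.9 kb upstream of Klf10 (-1.02) and 23.2 kb upstream of Klf10 (-0.65).

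The number of calls depended on single libraries. Leaving out 1 Panc_OFF library left 1 (replicate 1), 0 (replicate 2) or 3 (replicate 3) calls, leaving out Panc_ON replicate 1 left 2, and leaving out Lung_OFF replicates 1 or 2, which enter through the shared estimate of the spread, gave 10 and 11. The Klf6 peak also lost its call with a pseudocount of 10. Fibroblast marker sums were 923 to 1666 in Panc_OFF and 755 to 1702 in Panc_ON, and their part was not tested.

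**Figure D5:**
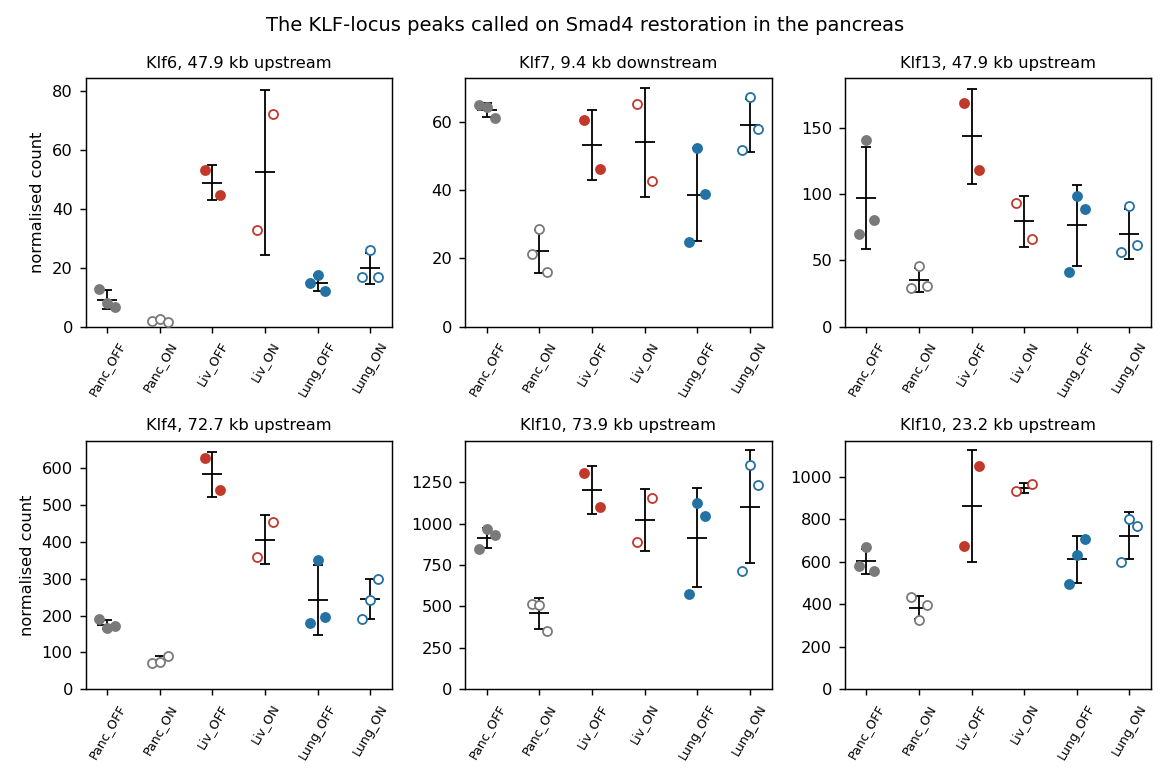
Normalised read counts of the 6 KLF-locus peaks called between Panc_ON and Panc_OFF, in each of the 16 samples, by group. Points are samples and bars the mean ± SD. In the pancreas all 6 were lower with Smad4 restored.

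In liver and lung metastases limma called 0 of 178 KLF-locus peaks after restoration, 0 in either direction (backgrounds 0.55% and 0.00366%, of which 0.462% and 0.00146% higher and 0.0886% and 0.0022% lower). At an unadjusted p under 0.05 there were 21 and 19 KLF-locus peaks, beside 16595 and 9720 of all 136630 peaks. edgeR called 0 in both, beside 190 and 5 of all 136630 peaks in the liver and lungs. DESeq2 called 3 in the liver and 0 in the lungs, beside 3184 and 997 over all peaks. A count of 0 does not show that these loci were alike. No KLF locus sum was called in any organ (backgrounds 2.15%, 0.0561% and 0.0112%).

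The restoration effects were also compared between organs. Liver minus lungs, liver minus pancreas and lungs minus pancreas each gave 0 calls by limma at the KLF loci (background 0 for each). At an unadjusted p under 0.05 there were 5, 8 and 27 KLF-locus peaks, beside 7171, 5403 and 14973 of all 136630 peaks. edgeR gave 0 for each, at the KLF loci and over all peaks. DESeq2 gave 0, 0 and 4, beside 48, 25 and 2255 over all 136630 peaks. The labels do not pair OFF with ON samples. Replicate numbers of the lung samples were read as pairs from correlations in these same data. With a block on that number in the lungs, the lungs minus pancreas comparison gave 4 calls. A share over all peaks under that block is not given here.

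Averaged over the 3 organs, 9 of 178 peaks (5.06%, background 6.62%) were called, 7 higher and 2 lower with Smad4 restored (background 3.61% and 3%). Klf6 had 3 of them within 5 kb of each other, 28.7 kb (log2 fold change 1.08), 30.0 kb (0.68) and 33.6 kb (0.62) downstream. Klf7 had 70.3 kb (1.16) and 90.0 kb (0.94) upstream, the former being the peak that was lower in the liver. Klf5 had 83.1 kb downstream (0.75). Klf10 had 50.5 kb upstream (0.84) and 98.4 kb upstream (-0.67), and Klf13 47.9 kb upstream (-0.77), the last pair being lower.

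At the Klf6 peak 28.7 kb downstream the counts were 24.8, 28.6 and 32.4 in Panc_OFF and 49.8, 47.0 and 64.4 in Panc_ON, 6.17 and 6.97 in Liv_OFF and 22.1 and 13.2 in Liv_ON, and 38.7, 9.78 and 37.9 in Lung_OFF and 69.6, 52.7 and 42.0 in Lung_ON. Its log2 fold change over the organs was 1.08 ± 0.27 (SE, adjusted p = 0.0312). The number of calls was 15 without Lung_OFF replicate 1, 4 without Panc_OFF replicate 1, Lung_OFF replicate 2 or Lung_ON replicate 1, and 3 without Liv_OFF replicate 1 or Liv_ON replicate 1.

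The other KLF genes were called about as often as all peaks in liver against lungs with Smad4 OFF. Of the 32 peaks at Klf1, Klf8, Klf11, Klf14, Klf15, Klf16 and Klf17, 15 were called (46.9%, background 49.7%), 14 higher and 1 lower in the liver (background 22.9% and 26.8%), and the median log2 fold change was 0.73, beside 0.00 over all peaks. Without Lung_OFF replicate 1, 14 were called (43.8%, background 41.2%), 13 higher and 1 lower, with a median of 0.60. Klf11, like Klf10 a TGFβ-inducible gene, had 7 of 7 peaks higher, with a median of 1.08. Klf14 had 3 of 11 higher and 0 lower, Klf15 2 and 1 of 5, Klf16 1 of 2 and Klf17 1 of 2 higher, while 0 of 4 at Klf8 and 0 of 1 at Klf1 were called. Klf18 had no peak. With Smad4 restored 11 of the 32 were called (34.4%, background 35.8%), 10 higher and 1 lower (background 17.6% and 18.2%).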

How the data were processed

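Bulk ATAC-seq of mKate2+ tumor cells was analysed in 16 samples from 6 groups, taken from the sample titles. A further allele that all groups share is not reported here. Table columns give doxycycline status, read as Smad4 OFF where doxycycline was on, and those of the lungs say day 15, not 14. The authors deposited a signal per peak, its normalised count. Their processing notes and methods name FastQC 0.11.5 for quality checks, Trim Galore and cutadapt for trimming, Bowtie2 for alignment to mm10, MACS2 and bedtools for a common peak set, featureCounts for counting and DESeq2 for size factors. Duplicate removal and transposase shift are not given in the sources used here. Scaling by size factors takes most peaks as unaltered. All columns were mapped (0 not mapped). Whole reads were recovered for 100% of values within 0.1 read, and edgeR and DESeq2 were run on them as alternatives. The mitochondrial row (1.43% to 3.56% of reads) was left out.

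Gene positions came from GENCODE vM21, and promoters were peaks within 1 kb of a start. Distances are to the nearest start of the gene. The test, limma 3.58.1 with trend and robust options in R 4.3.3, fitted 6 group means to log2(normalised count + 1) over 136630 peaks or, for summed loci, 17815 genes. Fold changes on that scale understate low peaks, and the ± after one is its standard error. edgeR 4.0.16 and DESeq2 1.42.0 were alternatives. Sequence and motifs were read with pysam 0.24.0. Counts for 136630 peaks were simulated with an assumed spread, and only peaks with a mean over 20 were changed in Liv_OFF. Against Lung_OFF the test recovered 48 of 94 peaks changed by 1 and 104 of 106 changed by 2 on the log2 scale. There were 35 false calls. Far fewer peaks were changed than were called in the data, and no weak ones. These rates may therefore not hold for the data.

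Named peaks were the start-site peak of each gene, up to 3 called peaks a direction and comparison, those of smallest p whose groups did not overlap, and the largest called peak of each gene between Liv_OFF and Lung_OFF. Others named, such as the rest of the peaks called after restoration, were chosen after their values were seen. The loci, lists and tests were chosen with earlier results of these data known. OFF and ON samples of the same number deviated together in the lungs (correlations 0.491, 0.124 and 0.214) but not in the pancreas (-0.330, 0.027 and -0.330) or liver (0.083), so only lung numbers were read as pairs. The labels do not state such pairs, and the value of 0.491 was that of replicate 1, whose OFF library stood apart.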

Additional observations from a re-analysis of the deposited data

How the results depend on the processing

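Of the comparisons, the numbers of KLF-locus peaks called between organs stayed within 1.5 times the reported count under other pseudocounts, filters, scalings, GC correction, replicate blocks, edgeR and DESeq2. A 50 kb limit, which removes peaks from the loci, gave 51 (Liv_OFF minus Lung_OFF), 59 (Liv_OFF minus Panc_OFF), 11 (Lung_OFF minus Panc_OFF), 35 (Liv_ON minus Lung_ON), 62 (Liv_ON minus Panc_ON), 25 (Lung_ON minus Panc_ON) and 4 for the average restoration. Thresholds of 1 and 0.05 gave 13 for Lung_OFF minus Panc_OFF, 23 for Lung_ON minus Panc_ON, 2 for the average and 0 for both liver comparisons of locus sums. Restoration in the pancreas gave 10 calls with TMM factors, 12 with quantile normalisation, 11 with a lung block and 15 with DESeq2. Over all 136630 peaks TMM factors gave 5485, quantile normalisation 8283 and DESeq2 9294 there. Restoration in the liver gave 1 with a mean count filter of 20, 1 with TMM factors, 1 with a lung block and 3 with DESeq2. The average gave 4 with a pseudocount of 10, 4 with quantile normalisation, 3 with GC correction (2 higher, 1 lower) and 5 with a replicate block and GC correction. The lungs minus pancreas restoration difference gave 2 with a replicate block, 4 with a lung block and 4 with DESeq2. With the replicate block over all organs the numbers were 92 for Liv_OFF minus Lung_OFF, 7 for restoration in the pancreas and 10 for the average. Locus sums relative to the neighbourhood (0.5 to 5 Mb) gave 4 calls for Liv_OFF minus Lung_OFF and 5 for Liv_OFF minus Panc_OFF, and quantile normalisation gave 1 for the latter. The number of KLF-locus peaks within 50 kb is not given here, so the counts under that limit are not shares of the 178. Where no count over all peaks stands beside them, the calls under these settings are not read against the background. The causes were not tested.

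Leaving out 1 library gave 67 to 99 calls for Liv_OFF minus Lung_OFF, 86 to 109 for Liv_OFF minus Panc_OFF, 7 to 29 for Lung_OFF minus Panc_OFF, 35 to 67 for Liv_ON minus Lung_ON, 78 to 117 for Liv_ON minus Panc_ON and 34 to 56 for Lung_ON minus Panc_ON. Restoration gave 0 to 11 in the pancreas, 0 to 2 in the liver, 0 to 0 in the lungs and 3 to 15 on average. With 1 library left out, shares over all peaks are given only for Lung_OFF comparisons without Lung_OFF replicate 1. The other counts are not read against the background. The restoration differences gave 0 to 0, 0 to 0 and, for lungs minus pancreas, 0 to 10 (10 without Lung_OFF replicate 2). Liver restoration had 1 call without Panc_ON replicate 3, Liv_ON replicate 2 or Lung_OFF replicate 1, and 2 without Lung_OFF replicate 2. Locus sums gave 0 to 4, 3 to 5 and 0 to 1 between organs and 0 after restoration, with 2 without Liv_OFF replicate 1 or Lung_OFF replicate 3 and 4 without Lung_OFF replicate 2 for Liv_OFF minus Lung_OFF.

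Among named peaks 3 values changed sign, none of them called. The Klf6 start site had -0.037 under quantile normalisation, and the Klf12 start site ran from -0.51 to 0.63 when 1 library was left out. The Klf7, Klf4 and Klf6 peaks called in the pancreas each lost the call without Panc_OFF replicate 2. GC correction moved the median of all peaks by 0.139 (Liv_OFF minus Panc_OFF) and 0.141 (Lung_ON minus Panc_ON), and quantile normalisation by 0.108 in the latter. Using only the groups compared gave no value for the average. With 2 liver samples a group and 36 to 76 reads at the median peak, small differences at weak peaks were not detectable.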

Other observations

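The SP genes are the closest relatives of the KLF genes and share their zinc fingers. Of the 63 peaks at 9 SP genes, 32 were called between Liv_OFF and Lung_OFF, 22 higher and 10 lower in the liver, and their median was 0.33 on the log2 scale. Sp8 had 6 of 8 peaks higher and 0 lower, Sp3 6 of 12 and 0, and Sp1, a broadly expressed activator, 5 of 10 and 1. Sp5, a Wnt target, leaned the other way, with 0 of 7 higher and 3 lower. In the pancreas 1 of the 63 was called after restoration, and 0 in the liver or lungs by limma.

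At 12 genes for regulators and partners of KLF proteins, 73 of 152 peaks were called, 29 higher and 44 lower in Liv_OFF than in Lung_OFF, with a median of 0.04. Fbxw7, which marks Klf5 for degradation, had 8 of 37 higher and 14 lower. Ctbp2, the corepressor bound by Klf3, had 9 of 39 higher and 13 lower. Mef2a, which acts upstream of Klf2 and Klf4, had 1 of 20 higher and 7 lower, and Ep300, a coactivator, 5 of 9 and 1. The shares of peaks called were 50.8% for the SP genes and 48.0% for the regulators, beside 49.7% over all peaks (22.9% higher and 26.8% lower). Without Lung_OFF replicate 1, 36 SP peaks were called (57.1%), 26 higher and 10 lower, and 58 at the regulators (38.2%), 23 higher and 35 lower, beside 41.2% over all peaks.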
